A study of Mactra quadrangularis with 9 samples.

Results

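Gill transcripts for osmolyte and water transport were followed in a surf clam, *Mactra quadrangularis* by its sample labels and *Mactra veneriformis* by the study's title. The 3 genes are a betaine transporter (Mve06G010360), a creatine transporter (Mve09G006690) and an aquaporin-5-like water channel (Mve06G006830). They were taken by gene ID from a table of 24722 genes and were picked with their levels in these same libraries known. Their own levels and fold changes are therefore given as a description, with no test. Gill was sampled after 24 h in water with 2 mg/L, 4 mg/L or 7.5 mg/L dissolved oxygen, the last being the control, with 3 libraries per group and 9 in all. Nitrogen gas lowered the oxygen under a plastic film, while control water was oxygenated. All groups were unfed, at 20 °C, salinity 27 and a stocking of 40 animals per parallel, and all 9 libraries carry the same batch date. The labels name neither genotype nor age. Nor do they say whether each library is a single clam, a pool or a repeat of shared RNA, so the p-values below speak to variation among libraries that may be technical.

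Marine bivalves let their body fluids follow the salinity of the sea and balance it inside the cell with small organic solutes such as taurine, betaine, glycine, proline and alanine. Many of these solutes enter through the SLC6 family, membrane carriers that use the inward gradients of sodium and chloride. In mammals the betaine transporter of this family is induced by salt stress in the kidney, and the creatine transporter loads muscle and brain with creatine. Aquaporins are channels for water, and the aquaglyceroporins among them also pass glycerol. Molluscs keep phosphate energy chiefly as phosphoarginine, made by arginine kinase, so the substrate of a clam gene described as a creatine transporter is not known from its name. The names used here are the descriptions in the deposited table.

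Library totals ran from 26994566 to 32246147 counts, and libraries of a group correlated across genes at 0.991 to 0.992, against 0.850 to 0.899 between groups. All 3 genes passed the filter of a mean of at least 1 FPKM (fragments per kilobase of transcript, scaled to sequencing depth) over the 9 libraries, as did 15397 genes in all. The tissue label was checked against markers of cilia, the moving hairs of gill epithelium: 78 of 81 such genes passed the filter, and their summed level was 8328.8 to 8379.4 CPM at 2 mg/L, 7878.3 to 7997.1 CPM at 4 mg/L and 9098.9 to 9171.5 CPM in control. CPM here is a gene's share of the library's counts after edgeR's trimmed-mean (TMM) correction. Summed muscle markers were at 12064.7 to 14767.2 CPM at 2 mg/L, 3634.7 to 3869.3 CPM at 4 mg/L and 3897.9 to 3981.1 CPM in control. In bulk tissue, fewer cells of a type and less RNA per cell cannot be told apart.

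The betaine transporter spanned the widest range of the 3. It measured 10.4, 9.31 and 10.5 FPKM at 2 mg/L, 2.17, 2.34 and 2.27 FPKM at 4 mg/L, and 37.3, 43.2 and 42.3 FPKM in control. The groups did not overlap, and the lowest level belonged to the milder of the oxygen deficits. It averaged 10.1 ± 0.675 FPKM at 2 mg/L, 2.26 ± 0.0845 FPKM at 4 mg/L and 40.9 ± 3.17 FPKM in control (SD, n = 3 each). The fitted log2 fold change against control was -1.82 ± 0.08 (standard error) at 2 mg/L, or 3.54-fold lower, and -4.11 ± 0.09 at 4 mg/L, or 17.3-fold lower. Between the low-oxygen groups it was 4.88-fold higher at 2 mg/L than at 4 mg/L (log2 2.29 ± 0.09). In level it stood above 69.4% of tested genes at 2 mg/L, above 22.7% at 4 mg/L and above 90.2% in control.

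The creatine transporter was about as abundant as the betaine transporter in control gill but spanned a narrower range. It measured 14.6, 14.4 and 13.6 FPKM at 2 mg/L, 17.2, 16.9 and 17.03 FPKM at 4 mg/L, and 38.9, 40.9 and 39.6 FPKM in control. Both low-oxygen groups lay well under control and close to each other. The means were 14.2 ± 0.551 FPKM at 2 mg/L, 17.1 ± 0.127 FPKM at 4 mg/L and 39.8 ± 1.03 FPKM in control (SD, n = 3 each). It was 2.44-fold lower at 2 mg/L (log2 -1.29 ± 0.05) and 2.24-fold lower at 4 mg/L (log2 -1.16 ± 0.05) than in control. The step between the low-oxygen groups was small, a log2 difference of -0.13 ± 0.05 for 2 against 4 mg/L, although their CPM values did not overlap.

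Aquaporin-5-like measured 3.03, 3.95 and 3.93 FPKM at 2 mg/L, 2.88, 2.54 and 2.65 FPKM at 4 mg/L, and 22.4, 24.3 and 21.4 FPKM in control. Control stood far above both low-oxygen groups, whose nearest libraries almost touched, at 3.03 and 2.88 FPKM. The means were 3.63 ± 0.528 FPKM at 2 mg/L, 2.69 ± 0.177 FPKM at 4 mg/L and 22.7 ± 1.49 FPKM in control (SD, n = 3 each). It was 5.44-fold lower at 2 mg/L (log2 -2.44 ± 0.10) and 8.07-fold lower at 4 mg/L (log2 -3.01 ± 0.10) than in control. Between 2 and 4 mg/L the log2 difference was 0.57 ± 0.11.

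All 3 genes were thus highest in control, and the libraries at 2 mg/L and those at 4 mg/L lay below every control library. Because the genes were chosen on these values, nothing is read from that agreement: 34.8% of all tested genes lay below control without overlap at 2 mg/L, and 36.9% at 4 mg/L, while 33.5% and 37.4% lay above it. Between 2 and 4 mg/L, 33.5% were higher and 34.5% lower without overlap. The order of levels was 4, then 2, then 7.5 mg/L for the betaine transporter and aquaporin-5-like, and 2, then 4, then 7.5 mg/L for the creatine transporter. As a description of size, 4.18% of tested genes had a lower log2 fold change than the betaine transporter at 2 mg/L and 1.00% at 4 mg/L. For the creatine transporter these shares were 7.87% and 12.4%, and for aquaporin-5-like 2.43% and 2.06%.

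**Figure D1:**
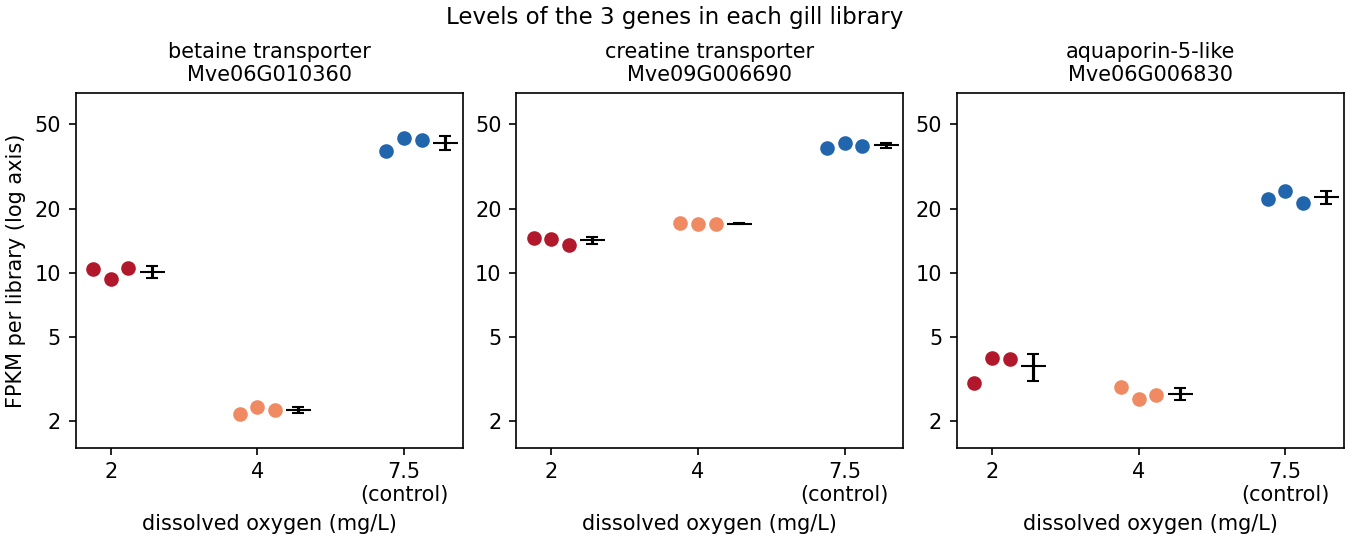
Each point is the level of a gene in 1 gill library (FPKM, log axis) by dissolved oxygen in mg/L, and the bar beside each group is its mean and SD over 3 libraries. The betaine transporter has its lowest points at 4 mg/L (2.17 to 2.34 FPKM), whereas the creatine transporter is lowest at 2 mg/L (13.6 to 14.6 FPKM).

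Relatives of the 3 genes were examined next, since the choice of genes did not rest on them. The SLC6 list, matched by words in the descriptions, held 55 genes, of which 32 passed the filter and 30 were not among the 3. By edgeR's quasi-likelihood test with Benjamini-Hochberg adjustment over all tested genes, 11 of these 30 rose, 10 fell and 9 did not pass at 2 against 7.5 mg/L. At 4 against 7.5 mg/L 11 rose, 14 fell and 5 did not pass. Of all 15397 tested genes 63.5% were called at 2 mg/L (31.5% higher and 32.0% lower) and 69.9% at 4 mg/L (35.4% higher and 34.5% lower). In the family 36.7% rose and 33.3% fell at 2 mg/L, and 36.7% rose and 46.7% fell at 4 mg/L. The median log2 fold change of the 30 genes was 0.08 at 2 mg/L, beside -0.03 for all genes, and -0.14 at 4 mg/L, beside -0.005. With scaling by total counts, which moved the median of all genes by -0.20 at 2 mg/L, 7 rose and 13 fell at 2 mg/L. Members of the family went in both directions under either scaling.

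Genes sharing the betaine transporter description did so too. Of 5 relatives that passed the filter, 3 rose and 2 fell at 4 mg/L. Mve05G004560, on chromosome 5, was the most abundant at low oxygen, with 103.6 ± 1.92 CPM at 2 mg/L, 76.1 ± 3.78 CPM at 4 mg/L and 54.5 ± 2.8 CPM in control. It rose in both comparisons, by 0.93 ± 0.06 on the log2 scale at 2 mg/L (adjusted p = 5.19e-10, edgeR) and by 0.48 ± 0.06 at 4 mg/L (adjusted p = 1.44e-06, edgeR). Mve04G010900 fell at 4 mg/L, to 13.9 ± 1.53 CPM against 36.7 ± 1.64 CPM in control, and measured 39.4 ± 2.69 CPM at 2 mg/L, where its log2 difference from control of 0.10 ± 0.09 did not pass. Mve05G016040 fell at both oxygen levels, with 6.13 ± 0.735 CPM at 2 mg/L, 10.7 ± 0.443 CPM at 4 mg/L and 18.1 ± 0.637 CPM in control. A pair of weakly expressed relatives near each other on chromosome 4 rose at 4 mg/L: Mve04G007840 by 0.93 ± 0.27 and Mve04G007870 by 1.93 ± 0.31 on the log2 scale. Neither passed at 2 mg/L. Reads shared between similar copies were not looked for.

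Summed over the 7 genes of this description, the level was 81.9 ± 0.88 FPKM at 2 mg/L, 59.1 ± 2.01 FPKM at 4 mg/L and 100.3 ± 1.22 FPKM in control (SD, n = 3 each). Mve06G010360 supplied 12.3% of that sum at 2 mg/L, 3.83% at 4 mg/L and 40.8% in control. It ranked 3 of 7 by level at 2 mg/L, 6 of 7 at 4 mg/L and 1 of 7 in control. Without it, the sum over the other genes was 71.9 ± 0.25 FPKM at 2 mg/L, 56.9 ± 2.09 FPKM at 4 mg/L and 59.3 ± 2.02 FPKM in control. At 4 mg/L the other genes together were thus close to their control sum, and at 2 mg/L above it.

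With TMM scaling, each tested relative of the creatine transporter fell at a single low-oxygen level, whereas the chosen gene was lower at both. In CPM, Mve09G006690 itself measured 85.3 ± 2.6 at 2 mg/L, 93.3 ± 1.08 at 4 mg/L and 208.6 ± 4.16 in control. Mve08G001160, the most abundant creatine transporter gene by FPKM, measured 96.1 ± 0.609 CPM at 2 mg/L, 50.3 ± 2.90 CPM at 4 mg/L and 91.8 ± 1.60 CPM in control. It fell at 4 mg/L (log2 -0.87 ± 0.05, adjusted p = 4.26e-10, edgeR), and its log2 difference of 0.07 ± 0.05 at 2 mg/L did not pass, a value that turned negative and passed when counts were scaled by totals (-0.13). Mve12G005390 moved in opposite directions at the 2 oxygen levels. It fell to 10.7 ± 1.95 CPM at 2 mg/L and rose to 40.2 ± 1.35 CPM at 4 mg/L, against 19.1 ± 1.19 CPM in control, and the difference between the low-oxygen groups was itself called (log2 -1.90 ± 0.12, adjusted p = 3.91e-10, edgeR). Mve09G006690 supplied 23.1% of the summed creatine transporter level at 2 mg/L, 28.9% at 4 mg/L and 41.8% in control. That sum, over 4 genes, was 61.6 ± 1.37 FPKM at 2 mg/L, 58.9 ± 0.48 FPKM at 4 mg/L and 95.2 ± 2.31 FPKM in control. Without Mve09G006690 it was 47.4 ± 0.83, 41.9 ± 0.52 and 55.4 ± 1.57 FPKM in the same order. The TMM correction was not applied to the FPKM sums, unlike the CPM values.

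**Figure D2:**
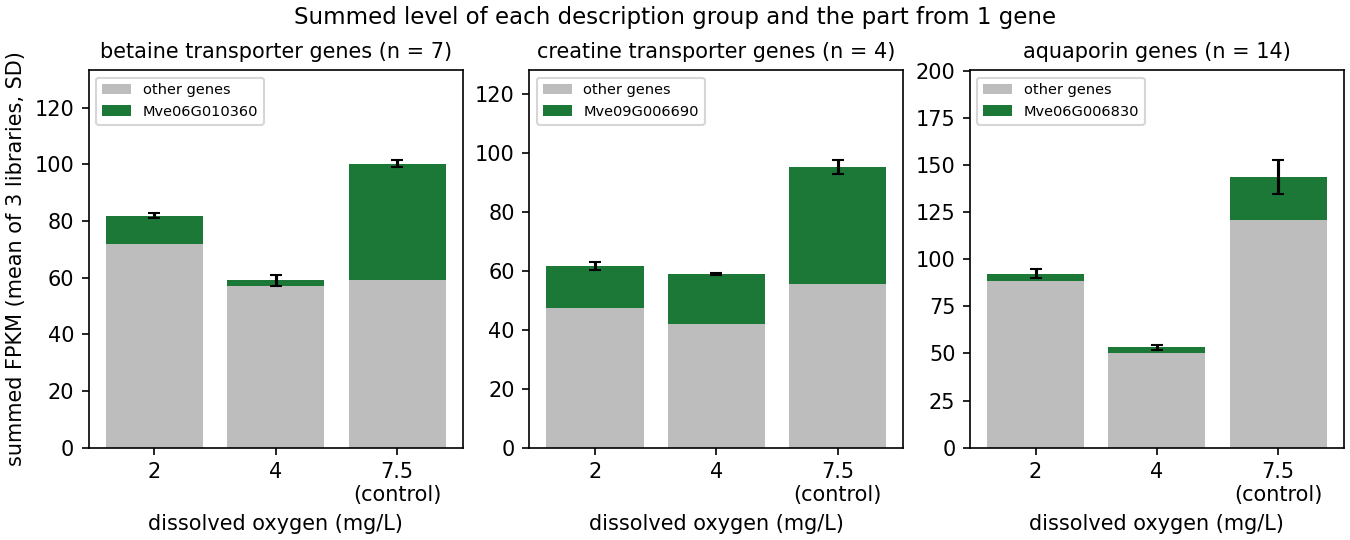
Bars give the summed level (FPKM, mean of 3 libraries, with the SD of the sum) of the genes described as betaine transporters, creatine transporters and aquaporins at 2, 4 and 7.5 mg/L oxygen. The green part is the chosen gene, which supplies 40.8%, 41.8% and 15.8% of the 3 sums in control, and the grey part is the other genes.

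Taurine carriers, which import the most abundant free amino acid of many bivalves, were mixed as well. Mve08G011310 had 0 counts in the 3 libraries at 2 mg/L and in the 3 control libraries, and 297, 291 and 395 counts at 4 mg/L. With 3 counts over the control group as the floor, it was at least 327.6-fold higher at 4 mg/L than in control. It passed the filter only through the 4 mg/L libraries. Low counts in the table are more often even than odd (2649 values of 2 and 1855 of 1), so a count is not 1 independent molecule and such a bound may be too high. Mve09G006710 fell at both levels, with 6.10 ± 0.403 CPM at 2 mg/L, 3.28 ± 0.647 CPM at 4 mg/L and 11.8 ± 0.588 CPM in control. The most abundant taurine carrier, Mve09G011320, named here after its values were seen, rose at 2 mg/L (log2 0.36 ± 0.07) and fell at 4 mg/L (log2 -0.19 ± 0.08). The rise was lost with total counts and the fall without control replicate 1 or 2 or 4 mg/L replicate 1 or 2 (-0.14 to -0.19).

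By far the most abundant SLC6-type transcripts were a pair described as sodium-dependent proline transporters, also named after their values were seen. Mve09G006210 measured 921.6 FPKM at 2 mg/L, 550.6 FPKM at 4 mg/L and 990.2 FPKM in control on average, and it fell at 4 mg/L by 0.79 ± 0.03 on the log2 scale. Its small log2 difference at 2 mg/L, 0.09 ± 0.03, turned to -0.11 with total counts. Mve04G011400 measured 560.2 FPKM at 2 mg/L, 437.7 FPKM at 4 mg/L and 360.4 FPKM in control, and rose in both comparisons (log2 0.83 ± 0.03 at 2 mg/L and 0.34 ± 0.03 at 4 mg/L). Among glycine transporters, Mve01G002020 fell at 2 and 4 mg/L (log2 -1.96 ± 0.16 and -1.81 ± 0.16), while Mve07G008650 rose at both (2.18 ± 0.28 and 2.98 ± 0.28). Mve19G002220, another glycine transporter, rose at 2 mg/L, to 6.80 ± 0.349 CPM, and fell at 4 mg/L, to 0.435 ± 0.271 CPM, against 2.57 ± 0.462 CPM in control. An XTRP3-type carrier (Mve06G002860), of a branch that handles imino acids in mammals, rose by about the same amount at both levels (log2 2.27 ± 0.18 and 2.23 ± 0.18).

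**Figure D3:**
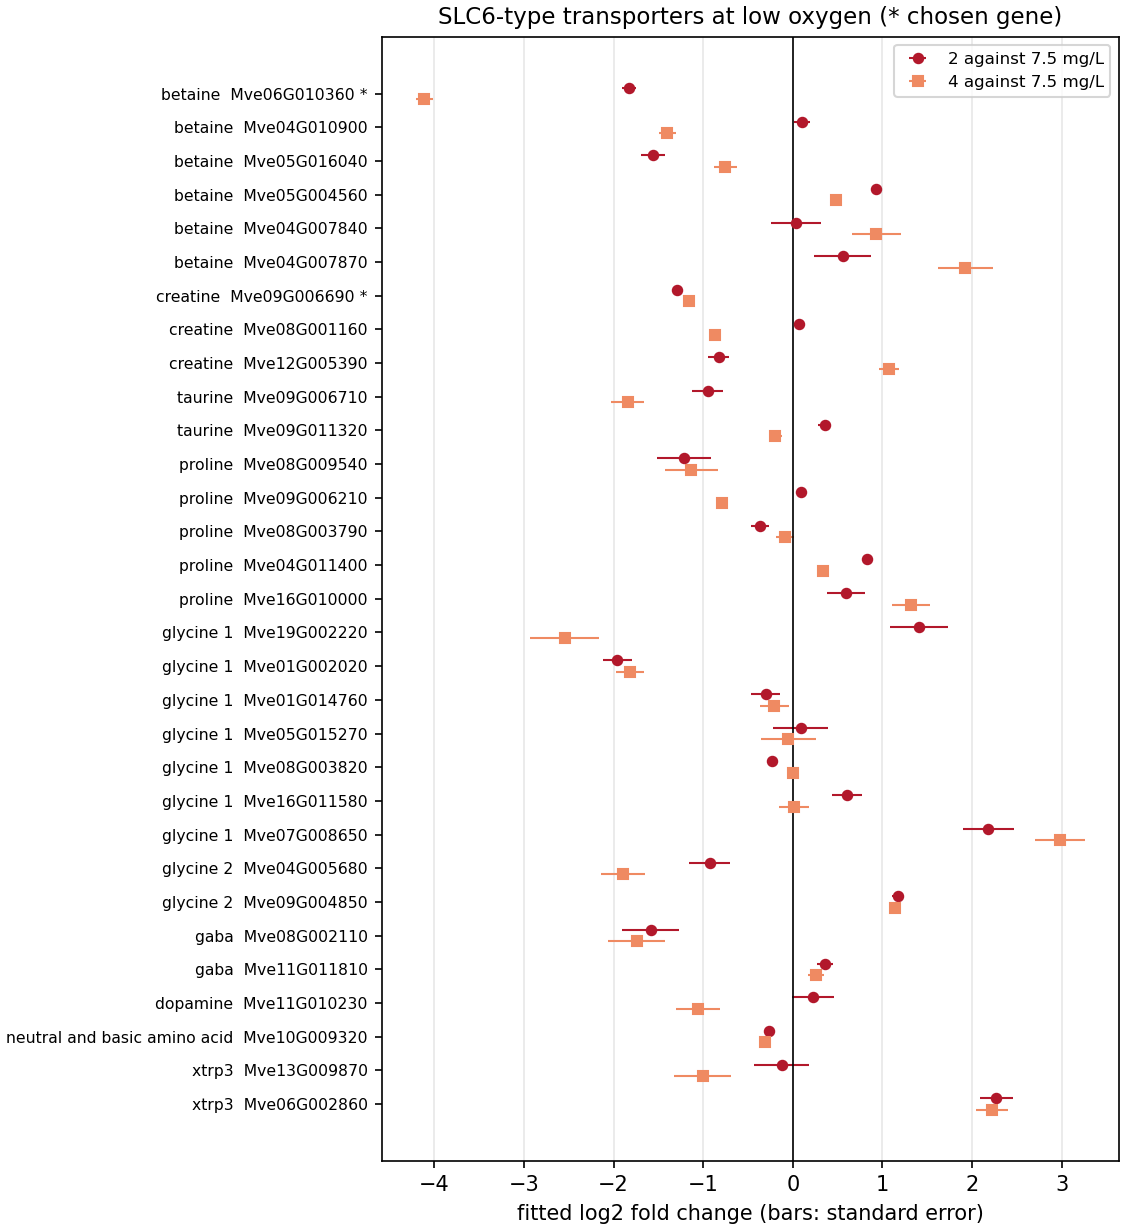
Fitted log2 fold change against control, with standard error, of the tested SLC6-type genes at 2 mg/L (circles) and 4 mg/L (squares), grouped by the substrate in their description. The taurine transporter with 0 control counts is left out. The betaine transporter Mve06G010360 has -1.82 and -4.11, and the other genes lie on both sides of 0. At 2 mg/L the glycine transporter Mve01G002020 lies lower than it.

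Most of the calls against control among aquaporins were falls. Of 14 aquaporin genes 11 passed the filter, and 10 of these were not the chosen gene. At 4 against 7.5 mg/L 7 of the 10 fell, 0 rose and 3 did not pass (70% lower, where all genes gave 34.5%), with a median log2 fold change of -0.94 beside -0.005 for all genes. An unadjusted edgeR p under 0.05 gave 0 rises as well, as did DESeq2 and limma, and without control replicate 3 there was 1, of Mve12G009870. At 2 against 7.5 mg/L 6 fell, 2 rose and 2 did not pass (60% lower, where all genes gave 32.0%), with a median of -0.37 beside -0.03. At 2 mg/L 3 of the falls, of Mve07G011420 (adjusted p = 0.0406, edgeR), Mve07G011430 (adjusted p = 0.0472, edgeR) and Mve12G001760 (adjusted p = 0.0421, edgeR), and the rise of Mve12G009870 (adjusted p = 0.0453, edgeR), sat just under the threshold of 0.05. These 4 genes were named after their values were seen, and the count of falls was 3 without control replicate 1, without control replicate 2 or without 2 mg/L replicate 2.

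Aquaporin-1-like Mve18G004370, of the family of water channels best known from red cells and kidney in mammals, came closest to the chosen gene in size. It measured 4.52 ± 1.0 CPM at 2 mg/L, 3.62 ± 0.324 CPM at 4 mg/L and 21.6 ± 0.583 CPM in control. It fell by 2.26 ± 0.16 on the log2 scale at 2 mg/L (adjusted p = 3.01e-09, edgeR) and by 2.58 ± 0.16 at 4 mg/L (adjusted p = 4.44e-10, edgeR). Aquaporin-10-like Mve11G014350, of the aquaglyceroporin type, fell in both comparisons (log2 -2.202 ± 0.277 and -2.206 ± 0.274). These 2 genes were low at both oxygen levels.

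Other aquaporins were low at 4 mg/L alone or mainly there. Aquaporin-8 (Mve01G019120), a channel that in mammals also passes ammonia and hydrogen peroxide, measured 9.46 ± 2.09 CPM at 2 mg/L, 0.601 ± 0.236 CPM at 4 mg/L and 7.52 ± 1.44 CPM in control. Its difference between 2 and 4 mg/L was called (log2 3.97 ± 0.29, adjusted p = 3.39e-09, edgeR). The most abundant aquaporin, AQPAe.a-like Mve06G005030, fell at 4 mg/L to 58.5 ± 0.459 CPM, against 121.2 ± 7.04 CPM in control, and measured 144.4 ± 7.45 CPM at 2 mg/L, a small rise that was lost with total counts. Aquaporin-9 (Mve11G013930) measured 7.00 ± 1.08 CPM at 2 mg/L, 2.24 ± 0.969 CPM at 4 mg/L and 13.1 ± 3.77 CPM in control, and fell in both comparisons. At 2 against 4 mg/L 4 of the 10 were higher, 1 was lower and 5 did not pass, where 63.7% of all tested genes were called, 31.6% higher and 32.1% lower.

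Summed over 14 genes, aquaporin transcripts came to 92.3 ± 2.36 FPKM at 2 mg/L, 53.2 ± 1.29 FPKM at 4 mg/L and 143.8 ± 8.89 FPKM in control. Without the chosen gene the sums were 88.7 ± 2.83, 50.5 ± 1.18 and 121.1 ± 7.64 FPKM in the same order. The lower sum at low oxygen was therefore present without aquaporin-5-like, unlike the sum of the betaine transporters. Without Mve09G006690 the creatine transporter sum was also lower, at 47.4 FPKM at 2 mg/L and 41.9 FPKM at 4 mg/L against 55.4 FPKM in control. None of these FPKM sums carried the TMM correction. Its factors were 0.918 to 0.935 at 2 mg/L and 1.06 to 1.07 in control, so the correction would raise 2 mg/L values relative to control.

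**Figure D4:**
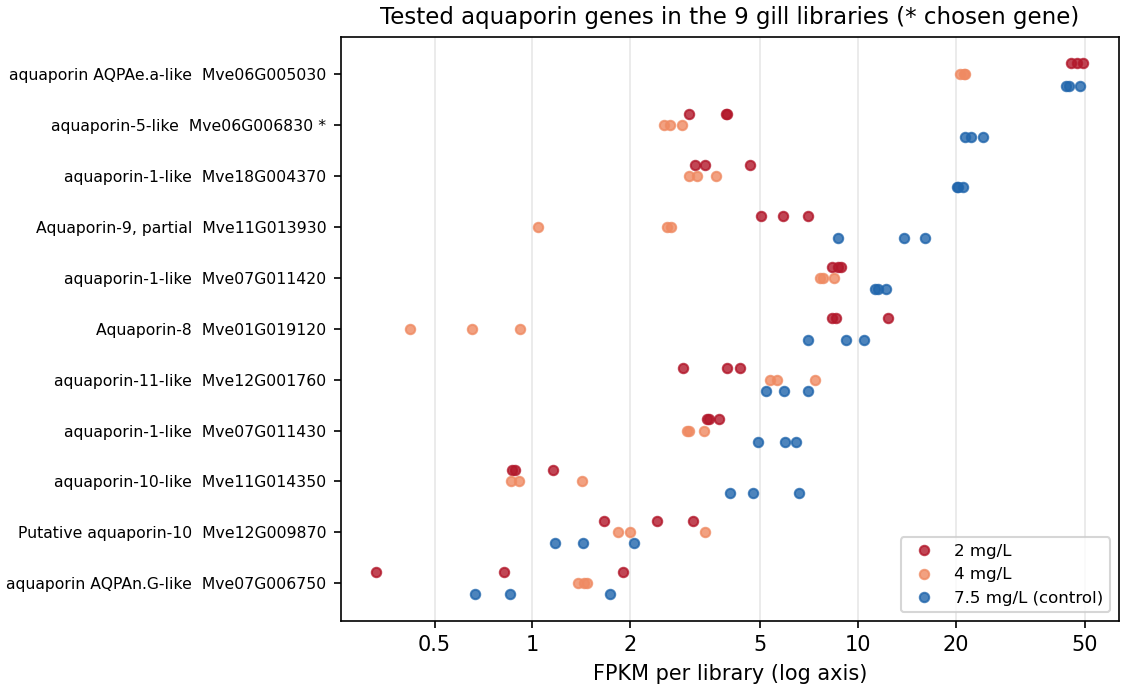
Each point is the level of a tested aquaporin gene (FPKM, log axis) in 1 library at 2 mg/L, 4 mg/L or 7.5 mg/L oxygen, with genes ordered by control level. Aquaporin-5-like, aquaporin-1-like Mve18G004370 and aquaporin-10-like Mve11G014350 sit low at both reduced levels, and aquaporin-8 is low at 4 mg/L.

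The positions of the 3 genes were compared with those of their neighbours, in the deposited table's coordinates (build not stated in the sources used here). The betaine transporter lies on the forward strand of chromosome 6 (34117640 to 34147831, a span of 30192 bp). The nearest gene, Mve06G010350, encodes a cytosolic phosphoenolpyruvate carboxykinase (PEPCK, which makes phosphoenolpyruvate from oxaloacetate) and points away from it on the reverse strand, so that 5403 bp separate the annotated starts of the pair. PEPCK and the betaine transporter differed from control in opposite directions. PEPCK rose by 5.42 ± 0.04 on the log2 scale at 2 mg/L and by 4.22 ± 0.04 at 4 mg/L, while the betaine transporter was lower at both. The next PEPCK genes on that side also rose, Mve06G010340 by 1.01 ± 0.04 and 0.81 ± 0.04 and Mve06G010330 by 1.72 ± 0.05 and 1.39 ± 0.05. On the other side the nearest gene began 116600 bp beyond the betaine transporter's end, and the 3 genes there did not pass the filter.

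**Figure D5:**
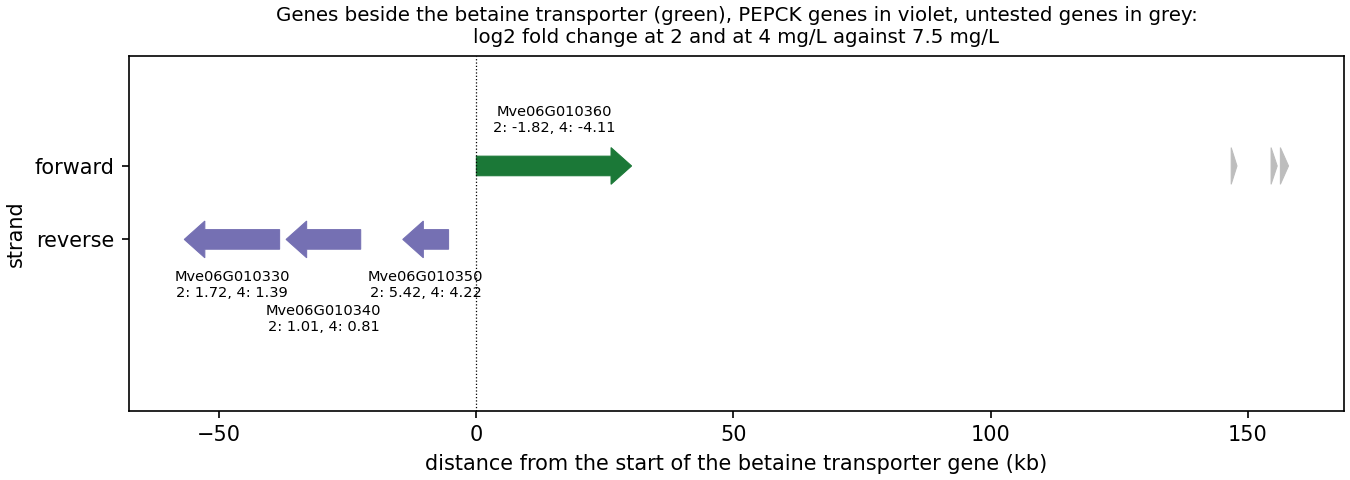
Map of the betaine transporter (green) and the 3 genes on each side, drawn to scale by distance in kb from its annotated start, forward strand above reverse, with log2 fold changes at 2 and 4 mg/L against control for tested genes. The violet PEPCK genes have positive values and the betaine transporter has -1.82 and -4.11.

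The creatine transporter lies on the reverse strand of chromosome 9 (23508389 to 23553533), and the taurine transporter Mve09G006710 is 2 genes away on the same strand, with 49134 bp between them. That neighbour fell at both oxygen levels, as given above. The other neighbours of the creatine transporter went in different directions. A gene described as kinase D-interacting substrate of 220 kDa (Mve09G006720) rose at 2 and 4 mg/L (log2 2.54 ± 0.17 and 2.39 ± 0.17). A kinectin-like gene (Mve09G006670) measured 11.9 ± 2.88 CPM at 2 mg/L, had 0 counts at 4 mg/L and measured 0.383 ± 0.493 CPM in control. An HSP70 12A-like chaperone gene (Mve09G006680), 7959 bp away, rose at 4 mg/L (log2 0.63 ± 0.15), and the hypothetical genes Mve09G006660 and Mve09G006700 rose and fell at 2 mg/L (1.32 ± 0.12 and -1.504 ± 0.368).

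Aquaporin-5-like lies on the reverse strand of chromosome 6 (22493709 to 22510341), far from the betaine transporter. Of the 3 genes on each side, 4 passed the filter. Another HSP70 12A-like gene, Mve06G006850, fell at 2 mg/L (log2 -0.44 ± 0.14) and at 4 mg/L (log2 -1.698 ± 0.143), and the first of these calls was lost without control replicate 1. The uncharacterised Mve06G006800 rose at both (1.10 ± 0.23 and 1.77 ± 0.22), and Mve06G006840 and torsin-1B (Mve06G006880) did not pass in either comparison.

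Enzymes that make and break down osmolytes were counted in the same way. Of 27 tested genes, 14 rose, 7 fell and 6 did not pass at 4 against 7.5 mg/L (51.9% higher, where all genes gave 35.4%), and 9 rose, 7 fell and 11 did not pass at 2 against 7.5 mg/L. The shares at 2 mg/L, 33.3% higher and 25.9% lower, were near those of all genes, 31.5% and 32.0%. With a filter at 5 FPKM, which kept 8 of these genes, 3 rose and 5 fell at 4 mg/L. The median log2 fold change of the 27 was -0.07 at 2 mg/L and 0.77 at 4 mg/L. By the naming rule, the largest calls at 4 against 7.5 mg/L were of Mve04G015120, Mve08G010350 and Mve18G000260. Like Mve05G002230, these genes were nearly absent at 2 mg/L and in control. Their 9-library mean FPKM, and so their passing of the filter, rested mainly on the 4 mg/L libraries in which they were then called higher. The betaine-homocysteine methyltransferase Mve04G015120, which uses betaine to remethylate homocysteine, had 0 counts at 2 mg/L and measured 13.1 ± 0.960 CPM at 4 mg/L and 0.363 ± 0.315 CPM in control. Another gene of this enzyme, Mve05G002230, measured 0.206 ± 0.178 CPM at 2 mg/L, 6.08 ± 0.365 CPM at 4 mg/L and 0.350 ± 0.180 CPM in control. The remaining one named, Mve05G002220, was highest at 2 mg/L, with 15.2 ± 0.867, 7.12 ± 1.28 and 4.39 ± 0.326 CPM in order of rising oxygen, and rose in both comparisons. Proline dehydrogenase 2 (Mve08G010350), which starts proline breakdown, measured 0.5 ± 0.198 CPM at 2 mg/L, 24.9 ± 1.54 CPM at 4 mg/L and 0.118 ± 0.204 CPM in control. A flavin-containing monooxygenase (Mve18G000260), of enzymes that in mammals oxidise trimethylamine and sulfur compounds, measured 0.494 ± 0.294, 12.5 ± 1.73 and 0.452 ± 0.144 CPM in the same order.

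The genes of taurine synthesis, chosen for mention after values were seen, went in different directions. Of 3 described as cysteine sulfinic acid decarboxylase, which makes hypotaurine, the most abundant (Mve02G011340) fell at both levels, with 162.1 ± 2.07 CPM at 2 mg/L, 83.3 ± 5.03 CPM at 4 mg/L and 239.2 ± 4.75 CPM in control. Mve07G000620 fell at 4 mg/L (log2 -0.78 ± 0.18) and Mve12G001670 rose there (log2 1.00 ± 0.18), and neither passed at 2 mg/L (0.37 ± 0.18 and 0.15 ± 0.18). Of 2 genes for cysteine dioxygenase, the step before, Mve06G007720 averaged 430.0 CPM at 2 mg/L, 115.8 CPM at 4 mg/L and 178.2 CPM in control. It rose at 2 mg/L (log2 1.27 ± 0.05) and fell at 4 mg/L (log2 -0.62 ± 0.05). The other, Mve17G008280, rose at both (log2 0.90 ± 0.07 and 1.11 ± 0.07).

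Both phosphagen kinases rose at 2 and 4 mg/L, where 31.5% and 35.4% of all tested genes were higher. The creatine transporter, picked with its levels known, was lower at both, and a link between them was not tested. Arginine kinase (Mve05G010230), which stores phosphate on arginine, measured 2963.8 ± 32.2 CPM at 2 mg/L, 2915.9 ± 116.6 CPM at 4 mg/L and 1084.0 ± 8.24 CPM in control. It rose by 1.45 ± 0.03 on the log2 scale at 2 mg/L (adjusted p = 2.62e-16, edgeR) and by 1.43 ± 0.03 at 4 mg/L (adjusted p = 1.87e-16, edgeR). Taurocyamine kinase-like Mve05G016130, whose relatives phosphorylate a taurine derivative in annelids, rose by 0.55 ± 0.04 and 0.16 ± 0.04, the second not passing with total counts. These were the 2 genes of that list, and no creatine kinase description matched. Arginine kinase is also abundant in muscle, and summed muscle markers were raised at 2 mg/L but not at 4 mg/L, as given above, while arginine kinase was about equally high at both. The part of muscle RNA in its level was not tested.

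The list of other carriers that could move osmolytes was broad, since it also took in organic ion carriers and monocarboxylate transporter 12, a creatine carrier in mammals. Of its 44 tested genes 17 rose, 12 fell and 15 did not pass at 2 mg/L, and 25 rose, 10 fell and 9 did not pass at 4 mg/L. These are 38.6% higher and 27.3% lower at 2 mg/L, where all genes gave 31.5% and 32.0%, and 56.8% higher and 22.7% lower at 4 mg/L, where all genes gave 35.4% and 34.5%. With total counts 10 rose and 15 fell at 2 mg/L. The sodium/myo-inositol cotransporter (Mve04G001440), chosen after its values were seen because inositol is a common osmolyte, fell at both, with 46.8 ± 1.61 CPM at 2 mg/L, 34.9 ± 1.03 CPM at 4 mg/L and 86.1 ± 3.29 CPM in control. The largest rises by the naming rule were at 4 mg/L, in Mve18G004190, Mve15G010860 and Mve05G004290. These genes were low at 2 mg/L and in control. Their mean FPKM over all libraries, which decided the filter, thus came mainly from the 4 mg/L libraries in which they were called higher. An organic anion transporter 2A1-like gene (Mve18G004190) measured 0.351 ± 0.324, 77.2 ± 1.64 and 1.01 ± 0.0896 CPM at 2, 4 and 7.5 mg/L. An excitatory amino acid transporter (Mve15G010860), of the glutamate carriers, measured 1.37 ± 0.615, 38.6 ± 2.92 and 1.5 ± 0.602 CPM in that order. An organic cation transporter (Mve05G004290) had 229, 215 and 271 counts at 4 mg/L and 0 in control, at least 238.2-fold higher, with 8 counts in 1 library at 2 mg/L. A second one, Mve10G002760, rose in both comparisons (log2 1.71 ± 0.23 at 2 mg/L and 0.78 ± 0.23 at 4 mg/L).

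Genes for cell volume and osmotic signalling came next. Of 22 tested, 14 rose, 6 fell and 2 did not pass at 2 mg/L (63.6% higher, where all genes gave 31.5%), and 12 rose, 6 fell and 4 did not pass at 4 mg/L (54.5%, where all genes gave 35.4%). At 4 mg/L the balance turned with a filter at 5 FPKM, which kept 6 of these genes, of which 2 rose and 4 fell. NFAT5 (Mve06G004390), the factor that in mammals switches on betaine and inositol carriers under salt stress, was chosen after its values were seen. It measured 30.9 ± 0.985 CPM at 2 mg/L, 18.0 ± 4.07 CPM at 4 mg/L and 2.49 ± 0.342 CPM in control. It rose 12.5-fold at 2 mg/L (adjusted p = 8.62e-12, edgeR) and 7.27-fold at 4 mg/L (adjusted p = 1.48e-10, edgeR).

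The SLC12 genes of this list, cotransporters of chloride with sodium or potassium, differed between the oxygen levels. SLC12A3-like Mve10G001610 had 1215, 1281 and 1052 counts at 2 mg/L, 0, 6 and 15 counts at 4 mg/L and 0 in every control library, and was at least 1371.3-fold higher at 2 mg/L than in control. SLC12A4-like Mve06G011760 had 10, 0 and 0 counts at 2 mg/L, 246, 349 and 258 counts at 4 mg/L and 0 in control, at least 284.0-fold higher at 4 mg/L. Sodium/hydrogen exchanger 9 (Mve13G001290) had 151, 142 and 108 counts at 4 mg/L and 0 in the other 6 libraries. An inward rectifier potassium channel (Mve01G005140) measured 6.05 ± 0.366 CPM at 2 mg/L, 0.972 ± 0.157 CPM at 4 mg/L and 0.0391 ± 0.0678 CPM in control. A TRPV5-like calcium channel (Mve14G012780) measured 0.0691 ± 0.120, 18.2 ± 0.717 and 1.52 ± 0.448 CPM in the same order. Each gene named in this paragraph passed the filter mainly through the group in which it was high.

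Genes whose pattern was most like each of the 3 were found by the root mean square (RMS) difference between centred log2(CPM + 1) profiles over the 9 libraries. For the betaine transporter the nearest was the uncharacterised Mve17G007750 (RMS 0.084), followed by Mve17G007730, 2 genes away on chromosome 17, a tripartite motif protein 56 gene (0.160). Carbohydrate sulfotransferase 14 (Mve04G002010, 0.235) came next, then the adjacent uncharacterised genes Mve16G008800 (0.235) and Mve16G008810 (0.243) on chromosome 16. Within an RMS of 0.2 lay 2 genes for the betaine transporter, 4 for aquaporin-5-like and 184 for the creatine transporter. The profiles were centred but not scaled, so these counts depend on how wide a gene's range is. They do not show how rare a pattern is. The nearest to the creatine transporter were ribosomal RNA-processing protein 8-like Mve09G014450 (0.069), microsomal glutathione S-transferase Mve09G014610 (0.070), the uncharacterised Mve15G007910 (0.072), a copper amine oxidase (Mve12G002610, 0.084) and Mve04G004180 (0.087), which has no description. This last gene averaged 0.0114 CPM at 2 mg/L, 0.186 CPM at 4 mg/L and 1.75 CPM in control, so the added 1 hides how far its proportional change departs from that of the creatine transporter. The nearest to aquaporin-5-like were Mve19G007590 (0.169) and Mve17G003630 (0.199), both of the tripartite motif family, Mve14G001040 (0.169), Mve02G017850 (0.189) and an ADAMTS-type metalloproteinase (Mve19G004830, 0.210). The added 1 also weighs on other matches with low CPM. At 4 mg/L Mve17G007730 was 44.5-fold lower than in control, against 17.3-fold for the betaine transporter. Mve14G001040 was 22.2-fold lower there, against 8.07-fold for aquaporin-5-like. Among the 3 genes themselves the RMS was 0.662 between the betaine transporter and aquaporin-5-like, 0.732 between the creatine transporter and aquaporin-5-like, and 1.18 between the transporters.

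Markers of other cell types were summed over the same libraries. Haemocyte markers, from circulating cells, came to 1382.6 to 1512.4 CPM at 2 mg/L, 1184.0 to 1199.5 CPM at 4 mg/L and 1041.6 to 1061.3 CPM in control. Digestive gland markers came to 1813.6 to 1841.7, 1815.6 to 1834.9 and 1658.3 to 1689.4 CPM in the same order. Mantle and shell markers came to 262.8 to 289.9, 147.8 to 157.5 and 215.3 to 228.3 CPM. Neuron markers came to 1217.0 to 1247.8, 1412.1 to 1436.4 and 1297.2 to 1318.2 CPM, and gonad markers to 993.4 to 1036.5, 1005.5 to 1037.4 and 1088.7 to 1105.4 CPM. No marker on any list was at 0 in all 9 libraries. Some sums went against most of the calls in their list. At 2 mg/L 9 digestive gland markers rose and 16 fell, though their sum was above control. At 4 mg/L 4 haemocyte markers rose and 6 fell, and 26 neuron markers rose and 33 fell, again with sums above control. For mantle and shell 6 rose and 4 fell at 4 mg/L, with a sum below control. These sums therefore do not stand for most genes of their lists. The part of cell makeup in the levels of the 3 genes was not tested.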

How the data were processed

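Poly(A) RNA of gill was sequenced as 150 bp pairs per the labels' protocols, from libraries with a dUTP second strand. The sources used here do not state a genome build or whether counting used strand. Cutadapt 1.9, HISAT2 2.2.1 and StringTie 2.1.6 are named in the submitters' processing notes, with DESeq2 and edgeR. The deposited table gives raw counts per gene and, beside them, FPKM, both made by the authors and named so per the file headers. All 18 value columns were mapped by title.

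Genes whose 9-library mean reached 1 FPKM were tested with edgeR 4.0.16 (R 4.3.3): quasi-likelihood test on the deposited counts, TMM scaling, 1 coefficient per group, all 9 libraries, Benjamini-Hochberg adjustment over 15397 genes, threshold 0.05. Variation among the libraries of a group (edgeR's common coefficient) was 11.8%, and the labels do not say if it is biological. Standard errors come from the log2 fold change and its F statistic. A gene with 0 counts in a group has a bound against 3 counts over that group, which covers counting error only. Named genes were the 3, relatives sharing their description, the 3 largest called changes per list and comparison, 3 neighbours on each side and the 5 most alike, with exceptions stated. The members and lists were chosen with earlier results of these data known. Alternatives used DESeq2 1.42.0, limma 3.58.1, other scalings, filters and left-out libraries.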

Additional observations from a re-analysis of the deposited data

How the results depend on the processing

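Scaling by total counts moved the median log2 fold change of all genes by -0.20 at 2 against 7.5 mg/L, -0.07 at 4 against 7.5 mg/L and -0.13 at 2 against 4 mg/L. The betaine transporter, creatine transporter and aquaporin-5-like kept the sign of every log2 fold change under every alternative run.

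With total counts, at 2 against 7.5 mg/L, these were -2.02 for the betaine transporter, -1.49 for the creatine transporter and -2.65 for aquaporin-5-like. The creatine transporter gave -1.23 at 4 against 7.5 mg/L, and at 2 against 4 mg/L the values were 2.16 for the betaine transporter and -0.26 for the creatine transporter. limma on log2(FPKM + 0.1) gave -2.01, -1.48 and -2.62 for the 3 genes at 2 against 7.5 mg/L, -1.22 for the creatine transporter at 4 against 7.5 mg/L, and 2.11 and -0.26 for the betaine and creatine transporters at 2 against 4 mg/L. limma on log2(FPKM + 1) gave -1.42 for the creatine transporter at 2 against 7.5 mg/L, -3.68 for the betaine transporter and -2.68 for aquaporin-5-like at 4 against 7.5 mg/L. At 2 against 4 mg/L it gave 1.76 for the betaine transporter, -0.25 for the creatine transporter and 0.32 for aquaporin-5-like.

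Mve08G001160 reversed at 2 against 7.5 mg/L (-0.134 with total counts, -0.127 and -0.129 with limma), as did Mve09G006210 (-0.108, -0.104 and -0.104), and Mve05G010230 reversed at 2 against 4 mg/L (-0.107, -0.111 and -0.111). The cause was not tested beyond the scaling shift.

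At 2 against 7.5 mg/L, rises numbered 7 with total counts and 6 with either limma for SLC6 genes, 10 with each of these for other carriers, and 0 with each for aquaporins. Aquaporins had 1 rise with no FPKM filter and 1 with the replicate block. Phosphagen enzymes had 1 rise at 4 against 7.5 mg/L with total counts and 1 fall at 2 against 4 mg/L with total counts or limma. A filter at 5 FPKM, which tests fewer genes, left 5975 calls (2970 higher, 3005 lower) at 2 against 7.5 mg/L, 6248 (3142 and 3106) at 4 against 7.5 mg/L and 5923 (2991 and 2932) at 2 against 4 mg/L. Under it, higher and lower calls were 6 and 4, 5 and 5, and 6 and 3 for SLC6 genes in those comparisons. Aquaporins had 1 rise at 2 against 7.5 mg/L. Osmolyte enzymes had 3 rises and 4 falls, then 3 and 5, then 4 and 3, so the balance turned in all 3 comparisons. Volume signalling genes had 4 rises and 2 falls, then 2 and 4, then 5 and 1, so the balance turned at 4 against 7.5 mg/L. Other carriers had 8 rises and 14 falls at 2 against 4 mg/L.

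Leaving out 1 library gave 3 to 5 falling aquaporins and 1 to 2 rising ones at 2 against 7.5 mg/L, 0 to 1 rising at 4 against 7.5 mg/L, and 0 to 1 lower at 2 against 4 mg/L. Phosphagen enzymes had 1 to 2 rises at 2 against 4 mg/L, and volume signalling genes 4 to 7 falls at 4 against 7.5 mg/L.

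Libraries with the same replicate number did not deviate together over all tested genes (correlations -0.029 to 0.005). This check showed no broad pairing by number, but it could not exclude a pairing that touches few genes. The replicate block moved no other list count past 1.5 times. Ranking likeness by Pearson correlation kept 1 of the 5 genes named for the betaine transporter, 0 for the creatine transporter and 0 for aquaporin-5-like.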

Other observations

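The closest matches to the betaine transporter profile included 2 pairs of genes close together on a chromosome. Mve17G007750 measured 7.71 CPM at 2 mg/L, 1.05 CPM at 4 mg/L and 29.7 CPM in control, and Mve17G007730 measured 7.11, 0.589 and 26.4 CPM in the same order. On chromosome 16, Mve16G008800 measured 58.0, 8.75 and 182.7 CPM and Mve16G008810 measured 109.8, 37.6 and 448.8 CPM. Whether reads were shared between such neighbours was not examined.

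Both the creatine transporter and aquaporin-5-like had an HSP70 12A-like gene among the 3 genes on each side, which was seen only after their neighbours were listed. The table describes 98 genes as HSP70 12A or 12B, and 1.37% of tested genes have such a neighbour. The pair of chaperone genes differed in direction at 4 mg/L, where Mve09G006680 rose and Mve06G006850 fell.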
